A study of Homo sapiens with 9 samples.

Results

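Changes of gene expression that 2 cell models of steatosis (fat accumulation in hepatocytes) have in common are described here, in the human hepatocellular carcinoma line HepG2. Each gene's mean effect over the de novo lipogenesis model (DNL) and the oleic acid model (OA), with equal weight, was set against control cells (WT), using all 9 samples of the series. A shared change was defined as a gene called in this average and in each model against WT, all in 1 direction, with the fold changes in DNL and OA within a ratio of 1.5 of each other. Of 13636 genes tested, 2436 met this rule, and they were 1188 higher and 1248 lower in both models.

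Each group had 3 samples of unedited HepG2 cells, and every medium held 10% serum and 1% antibiotics. The WT cells were in RPMI medium with nothing else added. For 1 week, the DNL cells received insulin at 10 µg/ml in DMEM together with T0901317, which activates the liver X receptors, at 10 µM. For 6 hours, the OA cells received oleic acid at 25 µM in DMEM, from a solution in 11% bovine serum albumin. Both models were thus in DMEM and the controls in RPMI, so a change common to the models cannot be told apart from a change of medium. No sample received DMEM alone or the albumin carrier alone. One protocol label gives the DNL recipe for all 9 samples, and groups and treatments were taken from each sample's own title and treatment label. No label says that the replicates were separate cultures, so the spread behind the p-values may be only technical.

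Hepatocytes make fatty acids and cholesterol under transcription factors of the SREBP family: SREBP1 and the liver X receptors act mainly on fatty acid genes, and SREBP2 mainly on cholesterol synthesis and uptake. SREBP2 is held back by sterols and released when they fall short. Amino acid shortage and endoplasmic reticulum stress raise translation of the transcription factor ATF4, which turns on amino acid synthesis, amino acid transport and aminoacyl-tRNA synthetase genes. Insulin represses a further set, among them IGFBP1, by way of FOXO factors.

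The deposited values are estimated counts per gene, with totals between 16447381 and 36147348 in DNL, 7836447 and 28636835 in OA, and 26425581 and 43043316 in WT. Levels below are CPM, counts at a common library total after TMM scaling (trimmed mean of M values), and values of 1 group are given in the order of replicates 1, 2 and 3. Tests are the quasi-likelihood test of edgeR over all 9 samples, with Benjamini-Hochberg adjustment over the 13636 genes and a call at an adjusted p under 0.05. OA replicate 3, the shallowest library, stood apart: 178 genes lay over 2-fold above, and 128 over 2-fold below, both other OA samples, against 7 to 40 and 13 to 119 in the other libraries. Left out, it gave 1176 higher and 1244 lower shared changes, and 1088 and 1147 of those found with it were among them. The hepatocyte marker list, whose genes include albumin, was expressed in every group but differed in its sum, which was highest in DNL (77555 to 79675 CPM), lowest in OA (14311 to 16321) and intermediate in WT (43703 to 45341).

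The average over both models called 3700 genes higher, which is 27.1% of the genes tested, and 3816 lower (28.0%). Together these were 55.1%. In DNL against WT, 53.8% of genes tested were called (27.1% higher and 26.8% lower), and in OA against WT 60.0% (30.4% and 29.7%). DNL against OA called 62.8%. Shared higher genes were 8.71% of all genes tested and 32.1% of the genes called higher in the average. Shared lower genes were 9.15% and 32.7%. The models share the WT samples, so a deviation of WT enters both effects, and the shares are a description of the rule and no test. The remaining genes called higher in the average comprised 209 and 281 called higher in both but beyond the size bound (larger in DNL and in OA), 659 called only in DNL, 992 called only in OA, 9 called in neither and 362 called in opposite directions. Among those called lower, the same counts were 112 and 281, 699, 1046, 42 and 388. Of all genes tested, 13.5% were called in opposite directions in the models, whether or not the average was called.

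Most shared changes were small. The median fold was 1.44 in both directions, with an interquartile range of 1.29 to 1.71 for genes that rose and 1.30 to 1.71 for genes that fell, and 691 higher and 723 lower genes were under 1.5-fold. Of all genes tested, 5.79% were called at least 2-fold higher in the average and 4.14% at least 2-fold lower. Shared changes of that size numbered 197 higher (1.44% of genes tested) and 163 lower (1.20%), of which 116 and 120 reached 5 CPM in the higher side. A gain or loss of at least 4-fold was found for 48 and 12 genes. The 6 treated samples lay wholly above the 3 WT samples in 1134 of the 1188 higher genes and wholly below in 1214 of the 1248 lower genes, where 14.3% and 15.5% of all genes tested do so. That separation follows in large part from how the genes were chosen. Median expression in WT was 33.5 CPM for the genes that rose and 65.1 CPM for the genes that fell.

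**Figure D1:**
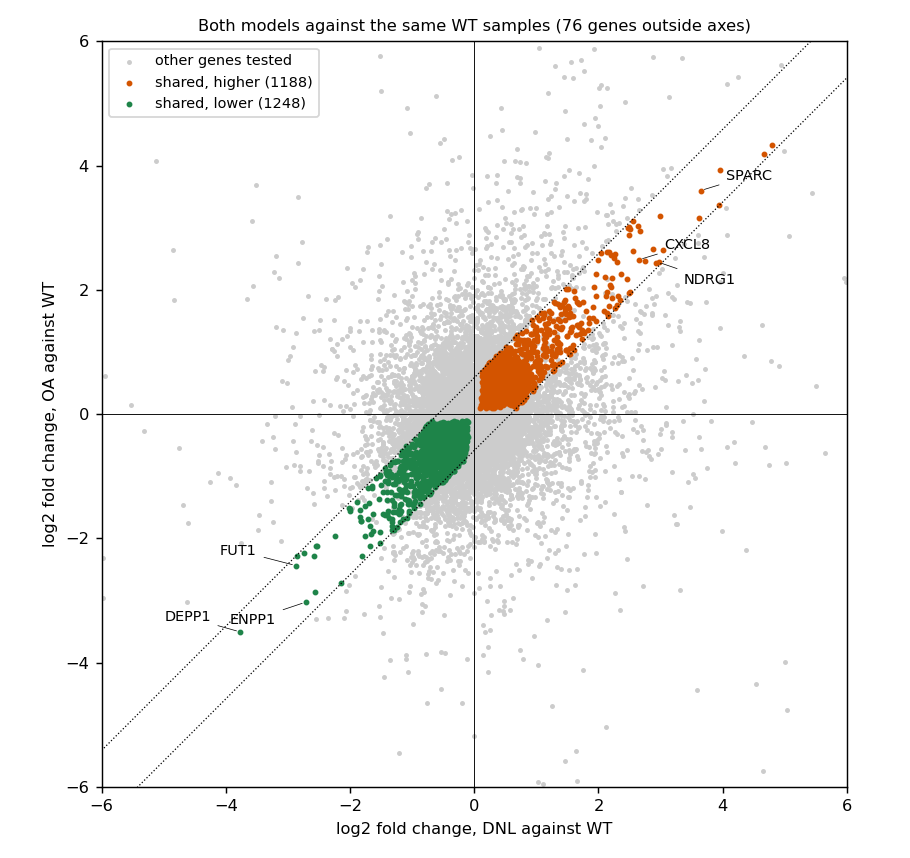
Each point is 1 tested gene, placed by its log2 fold change in DNL against WT (horizontal) and in OA against WT (vertical). Shared changes are coloured (1188 higher, 1248 lower), the dotted lines mark the 1.5-fold bound between the models, and 76 genes lie outside the axes. DEPP1 and ENPP1 lie at the far lower end of the band and NDRG1 and CXCL8 towards its upper end.

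The largest shared fall was in DEPP1 (ENSG00000165507, chr10:44970981-44978810 on GRCh38), a FOXO target linked to autophagy and fasting. DEPP1 read 450, 461 and 437 CPM in WT, 31.4, 29.7 and 37.2 in DNL and 33.8, 40.1 and 45.5 in OA. All 6 treated samples lay more than 9-fold below every WT sample, and the average was 12.5-fold lower (log2 fold change -3.64, SE 0.0767, adjusted p = 6.48e-11). ENPP1 (ENSG00000197594, chr6:131808016-131895155), an ectoenzyme that makes pyrophosphate and is known as an inhibitor of insulin receptor signalling, fell from 1013, 1058 and 1027 CPM in WT to 156, 155 and 161 in DNL and 131, 128 and 119.7 in OA. Replicates of ENPP1 lay close together in each group and every treated value was far below WT, with a 7.32-fold lower average (log2 fold change -2.87, SE 0.0334, adjusted p = 1.75e-14). COL16A1, a fibril-associated collagen, was at 55.1, 53.7 and 54.1 CPM in WT, 9.76, 7.92 and 9.68 in DNL and 7.34, 6.85 and 8.67 in OA. Its 3 WT values were close to each other and none of the treated values came near them (6.55-fold lower, adjusted p = 5.73e-11).

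FUT1, the fucosyltransferase of the H blood group antigen, fell from 21.7, 23.4 and 24.7 CPM in WT to 2.89, 3.46 and 3.24 in DNL and 4.03, 3.99 and 5.11 in OA (6.3-fold, adjusted p = 6.79e-10). GPD1, the cytosolic glycerol-3-phosphate dehydrogenase that supplies the backbone of triacylglycerol, fell from 78.8, 81.7 and 84.6 CPM in WT to 19.1, 18.7 and 17.7 in DNL and 10.5, 14.8 and 10.7 in OA (5.38-fold, adjusted p = 1.95e-10). OA lay below DNL in GPD1 and the sizes were near the bound, so that it counted as shared in 9 of 15 alternative fits. MAOA, the mitochondrial monoamine oxidase A, fell from 66.9, 67.8 and 70.6 CPM to 21, 20.4 and 19.2 in DNL and 20.6, 17.4 and 13.9 in OA (3.64-fold, adjusted p = 1.53e-09). ACAD11, an acyl-CoA dehydrogenase, fell from 70.1, 75.3 and 64.8 CPM to 25.5, 24.8 and 15.8 in DNL and 14.5, 18.6 and 14 in OA (3.72-fold, adjusted p = 1.95e-06). Both genes had treated values under 0.5 times the lowest WT value, with some scatter between the treated replicates. CHCHD10, a mitochondrial intermembrane space protein, fell 3.47-fold, the kinesin KIF26B 5.05-fold and the synaptic protein complexin 1 (CPLX1) 3.42-fold.

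In 2 of the 12 largest falls, OA replicate 3 lay more than 2-fold below the other OA samples. ABCC3, an organic anion exporter of the basolateral membrane, was at 89.4, 94.4 and 83.2 CPM in WT, 31.2, 36.9 and 26.1 in DNL and 23.2, 27.2 and 9.62 in OA, and it fell 3.46-fold (adjusted p = 4.65e-04). Without OA replicate 3 its average was -1.66 on the log2 scale and it still counted as shared. PABPC1L, a poly(A)-binding protein relative, was at 42.9, 35.2 and 41.8 CPM in WT, 5.7, 5.26 and 6.94 in DNL and 11.1, 10.2 and 2.49 in OA (5.6-fold lower, adjusted p = 1.52e-04). Without that library the fall of PABPC1L remained called, at -2.33, but the models then differed by more than the bound. KIF26B likewise left the bound without it, with -2.55 in DNL and -1.92 in OA.

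Among rises that reached 5 CPM and did not lean on OA replicate 3, NDRG1 (ENSG00000104419), a stress-responsive gene induced by hypoxia, had the largest. NDRG1 read 24, 24 and 22.4 CPM in WT, 198, 178 and 176 in DNL and 119, 137 and 126 in OA. The groups did not overlap, DNL lay above OA, and the average rose 6.53-fold (log2 fold change 2.71, SE 0.0632, adjusted p = 8.10e-12). CXCL8 (ENSG00000169429, chr4:73740506-73743716), the neutrophil chemokine interleukin 8, was at 9.76, 9.85 and 10.9 CPM in WT, 64.1, 60.8 and 66.8 in DNL and 47.2, 60.1 and 63.7 in OA. DNL and OA overlapped in CXCL8 and both were far above WT, at 5.94-fold (log2 fold change 2.57, SE 0.0968, adjusted p = 3.78e-10). OAS1, the interferon-induced oligoadenylate synthetase, was at 2.83, 2.54 and 2.82 CPM in WT, 13.7, 13 and 13.6 in DNL and 14, 15.5 and 15.1 in OA. The 6 treated values of OAS1 lay within a narrow range, 5.16-fold above WT on average (adjusted p = 2.92e-09).

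PFKFB3, which makes the activator of phosphofructokinase and so drives glycolysis, rose from 2.62, 4.33 and 3.33 CPM in WT to 16.8, 19.4 and 16.3 in DNL and 12.9, 18 and 17.7 in OA (4.94-fold, adjusted p = 2.03e-07). LMCD1, a transcriptional cofactor, rose from 2.76, 2.54 and 2.16 CPM to 9.61, 10.8 and 9.6 in DNL and 10.6, 15.2 and 16 in OA (4.71-fold, adjusted p = 1.71e-07). The betaine and GABA transporter SLC6A12, an osmolyte carrier, rose from 1.91, 1.83 and 2.74 CPM to 10.5, 9.71 and 11.9 in DNL and 8.61, 6.85 and 9.03 in OA (4.33-fold, adjusted p = 5.67e-07). WT and treated values did not overlap in any of the 3 genes. FRMD3, a protein of the membrane skeleton family, rose 6.09-fold, and EEIG2 4.15-fold. PRF1, which encodes the pore-forming perforin of cytotoxic lymphocytes, was at 2.09, 2 and 2.27 CPM in WT, 9.24, 10.2 and 9.85 in DNL and 9.16, 9.16 and 7.84 in OA. It rose 4.36-fold (adjusted p = 5.26e-08), and the summed macrophage and leukocyte marker list was also higher in the models, at 1810 to 1889 CPM in DNL and 1133 to 1179 in OA against 1010 to 1019 in WT. Only 5 of the 10 genes of that list passed the filter on low counts, LYZ (lysozyme) made up most of the sum, and PTPRC, the common leukocyte antigen CD45, averaged 0.486 CPM in DNL, 0.327 in OA and 0.704 in WT.

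**Figure D2:**
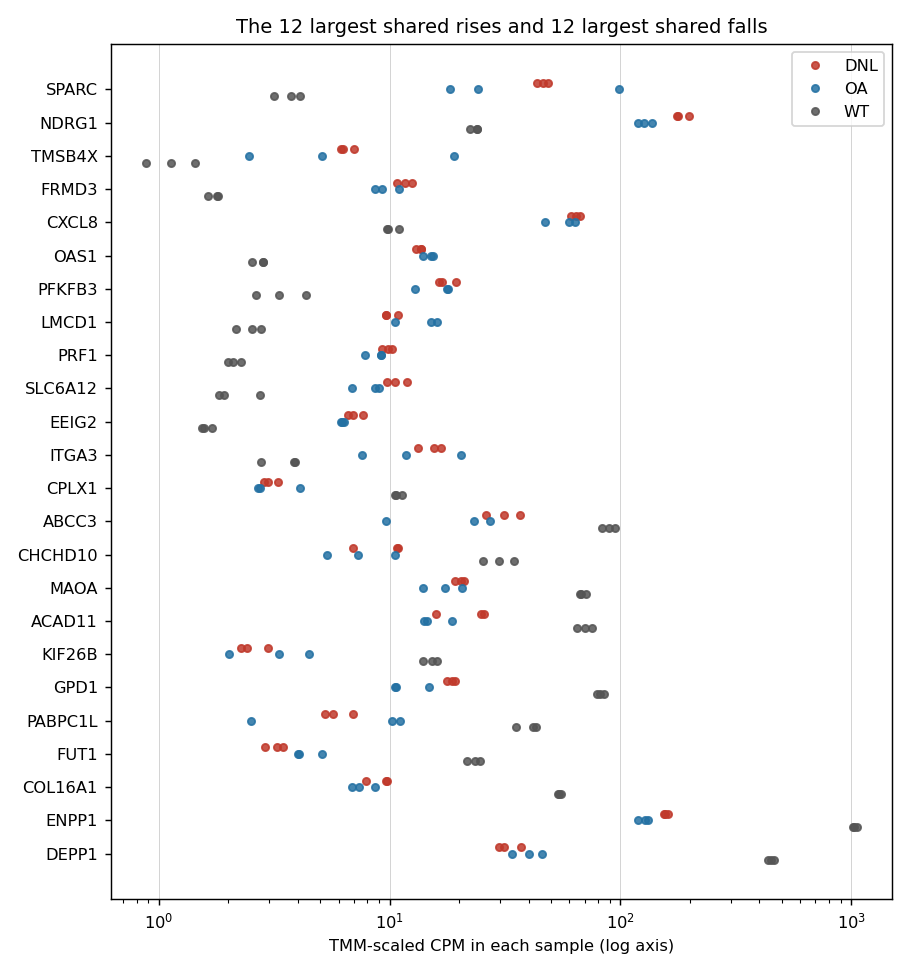
TMM-scaled CPM on a log axis for the 12 largest shared rises and the 12 largest shared falls, with 1 point per sample in DNL (red), OA (blue) and WT (grey). Treated and WT points do not overlap in any of the 24 genes, which was a condition for listing them, and the OA points of SPARC, TMSB4X, ITGA3, ABCC3 and PABPC1L are widely spread.

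SPARC, TMSB4X and ITGA3 rose in both models, and OA replicate 3 had the highest OA value of each. SPARC (ENSG00000113140, chr5:151661096-151687165), a matrix glycoprotein that binds collagen, was at 4.07, 3.15 and 3.73 CPM in WT, 48.7, 46 and 43.6 in DNL and 18.3, 24.1 and 98.2 in OA. DNL replicates lay close together and the third OA value was over 4-fold above the second. The average rose 12.3-fold (log2 fold change 3.62, SE 0.67, adjusted p = 0.00376), and without OA replicate 3 it was 3.10 on the log2 scale, with 3.65 in DNL and 2.54 in OA, beyond the bound. TMSB4X, the actin-sequestering thymosin beta 4, was at 2.45, 5.07 and 19 CPM in OA, 6.13, 6.99 and 6.27 in DNL and 1.13, 0.88 and 1.43 in WT (6.45-fold higher, adjusted p = 0.00738), and the average was 2.13 without that library. TMSB4X counted as shared in 9 of 15 alternative fits. ITGA3, an integrin alpha chain that binds laminin, was at 7.58, 11.7 and 20.3 CPM in OA, 16.7, 15.5 and 13.3 in DNL and 2.76, 3.86 and 3.88 in WT (4.03-fold higher, adjusted p = 1.56e-04), and 1.81 without it, with 2.12 in DNL and 1.501 in OA, beyond the bound.

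Some fibroblast-type transcripts moved with the same library. COL1A1, a chain of type I collagen, was at 19.3, 85 and 537 CPM in OA and under 1 CPM in every DNL and WT sample. COL1A2, the other chain of type I collagen, was at 10.2, 41.1 and 259.6 CPM in OA and had no count in any DNL or WT sample, which allows a level of up to 0.182 CPM in the shallowest of those libraries (3 counts, counting error only). VIM, the intermediate filament of mesenchymal cells, was at 3.79, 10.5 and 66.7 CPM in OA and likewise had no count in DNL and WT. Each of the 3 was lowest in OA replicate 1 and highest in OA replicate 3. Other genes of this kind were not highest in OA. PDGFRB was at 9.46, 11.6 and 8.71 CPM in WT, 2.37, 4.35 and 7.6 in OA and 0.893, 1.13 and 1.08 in DNL. LRAT was at 1.08, 1.69 and 1.39 CPM in WT and 0.632, 0.659 and 0.831 in OA. Of the 9 tested genes of the stellate cell and fibroblast list, OA called 3 higher and 2 lower (30.4% and 29.7% of all genes tested). The summed stellate cell and fibroblast list lay between 92.6 and 94.1 CPM in DNL, 96.7 and 1069 in OA, and 73.6 and 80.0 in WT, and 6 of its 9 tested genes and 10 of the 19 tested extracellular matrix genes were over 2-fold higher or lower in OA replicate 3 than in both other OA samples. In bulk samples, fewer cells of a type and less RNA per cell cannot be told apart. DNL, where COL1A2 and VIM had no count, held SPARC at 43.6 to 48.7 CPM, and the part of fibroblast-type transcripts in the OA values was not tested.

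**Figure D3:**
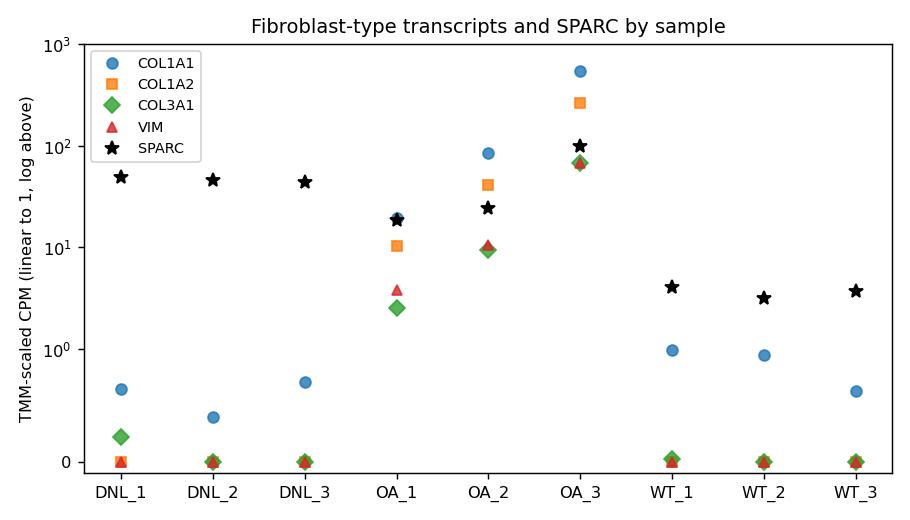
TMM-scaled CPM of COL1A1, COL1A2, COL3A1, VIM and SPARC in each of the 9 samples, on an axis that is linear to 1 and logarithmic above. The 4 fibroblast-type transcripts are at or near 0 in DNL and WT and reach 66.7 to 537 CPM in OA replicate 3, while SPARC is above WT in all 6 treated samples.

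Genes of cholesterol synthesis and uptake rose together in both models. Of 26 tested members, 24 were called higher in the average (27.1% of all genes tested were) and 2 lower, 12 were shared higher (8.71% of all genes tested) and 1 shared lower. The median log2 fold change of the list was 1.41 in the average, against -0.02 over all genes tested, and it was 1.60 in DNL and 1.01 in OA. IDI1 (ENSG00000067064, chr10:1039152-1049170), the isopentenyl diphosphate isomerase, rose from 60.2, 50.5 and 56.4 CPM in WT to 206, 200.3 and 199 in DNL and 175, 141 and 148 in OA (3.16-fold, adjusted p = 4.52e-09). HSD17B7, a reductase of the later sterol steps, rose from 8.54, 7.89 and 8.38 CPM to 27.7, 26.5 and 27.3 in DNL and 20.9, 21.9 and 26.2 in OA (3.01-fold, adjusted p = 1.31e-08). In both genes OA lay somewhat below DNL and every treated value was above WT.

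INSIG1, the sterol-sensing protein that retains the SREBP complex in the endoplasmic reticulum, had the largest fold of the list but from a low level, at 0.184, 0.203 and 0.219 CPM in WT, 1.76, 2.06 and 1.247 in DNL and 0.711, 1.15 and 2.14 in OA (7.15-fold, adjusted p = 1.07e-04). INSIG1 left the bound without OA replicate 3, at 3.03 in DNL and 2.24 in OA. HMGCS1, the HMG-CoA synthase, was called in both models but was just beyond the bound, with 469, 466 and 489.6 CPM in DNL, 306, 277 and 289 in OA and 119, 113 and 121 in WT. Its log2 fold change was 2.02 in DNL and 1.31 in OA. The single shared fall in the list was PMVK, the phosphomevalonate kinase, at 10.2, 9.21 and 9.47 CPM in WT, 7.45, 5.46 and 7.44 in DNL and 5.21, 5.54 and 5.23 in OA (adjusted p = 6.09e-04). With scaling by library totals instead of TMM, 17 members were shared higher and 1 lower.

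Promoter sequences of cholesterol genes are shown because their members moved together and because a sterol regulatory element and a CCAAT box are the classical pair of motifs of SREBP targets. RefSeq promoters (GRCh38.p14, 250 bases before to 50 after the gene start) were matched for 11027 tested genes and searched on both strands. The sterol element core TCACNCCAC occurred in 1.12% of all of them and in 1 of 19 cholesterol genes with a promoter, SREBF2, which encodes SREBP2 itself. CCAAT occurred in 36.7% of all and in 15 of these 19. The motifs differ in letters, and CCAAT does not occur within TCACNCCAC. In the 120 bases below, 5′ to 3′ on the strand of the gene, capitals mark 1 motif per gene, which is TCACCCCAC in SREBF2 (chr22:41832916-41833035, plus strand) and ATTGG, the reverse complement of CCAAT, in HSD17B7 (chr1:162790582-162790701, plus strand) and MVD (chr16:88663189-88663308, minus strand).
SREBF2: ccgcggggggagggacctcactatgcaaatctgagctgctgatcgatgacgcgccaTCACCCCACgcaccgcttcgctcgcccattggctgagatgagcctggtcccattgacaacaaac
HSD17B7: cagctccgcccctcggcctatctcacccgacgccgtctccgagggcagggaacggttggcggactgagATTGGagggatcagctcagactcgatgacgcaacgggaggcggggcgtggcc
MVD: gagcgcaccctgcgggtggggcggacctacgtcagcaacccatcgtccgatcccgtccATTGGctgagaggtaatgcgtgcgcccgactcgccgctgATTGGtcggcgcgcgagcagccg
The motif of SREBF2 began 133 bases before its gene start, that of HSD17B7 52 bases before, and the first of MVD 159 bases before. A match is a description of letters and was not tested as a site.

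Targets of ATF4 in the amino acid response were mostly lower in DNL and went both ways in OA. DNL called 28 of 30 tested members lower and 0 higher (26.8% and 27.1% of all genes tested), and OA called 18 lower and 4 higher (29.7% and 30.4%). In both models 17 were lower, and 4 were called in opposite directions (13.5% of all genes tested). Of the 30, 27 were called lower in the average (28.0% of all genes tested were) and 1 higher, 10 were shared lower (9.15% of all genes tested) and 0 shared higher. The list median was -0.53 in the average, with -0.67 in DNL and -0.30 in OA. ASNS (ENSG00000070669, chr7:97852118-97872542), the asparagine synthetase, was at 395, 374 and 381 CPM in WT, 208, 216 and 213 in DNL and 197, 204 and 214 in OA. The 6 treated values of ASNS spanned a narrow range with DNL and OA interleaved, and the average was 1.84-fold lower (log2 fold change -0.88, SE 0.0348, adjusted p = 6.03e-10). NUPR1, a stress-induced chromatin protein, fell from 23, 22.2 and 20.3 CPM in WT to 9.24, 9.11 and 10.4 in DNL and 9.95, 12.9 and 11.5 in OA (2.08-fold, adjusted p = 1.01e-06). WARS1, the tryptophanyl-tRNA synthetase, fell from 272, 267 and 252 CPM to 124, 107 and 115 in DNL and 160.1, 173 and 169 in OA (1.89-fold, adjusted p = 4.86e-09). DNL lay lower than OA in WARS1 and in neither gene did a treated value reach WT. SHMT2, the mitochondrial serine hydroxymethyltransferase that feeds one-carbon units, fell from 421, 412 and 411 CPM to 253, 266 and 262 in DNL and 195, 199.8 and 187 in OA, with OA the lower (1.84-fold, adjusted p = 2.61e-10).

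**Figure D4:**
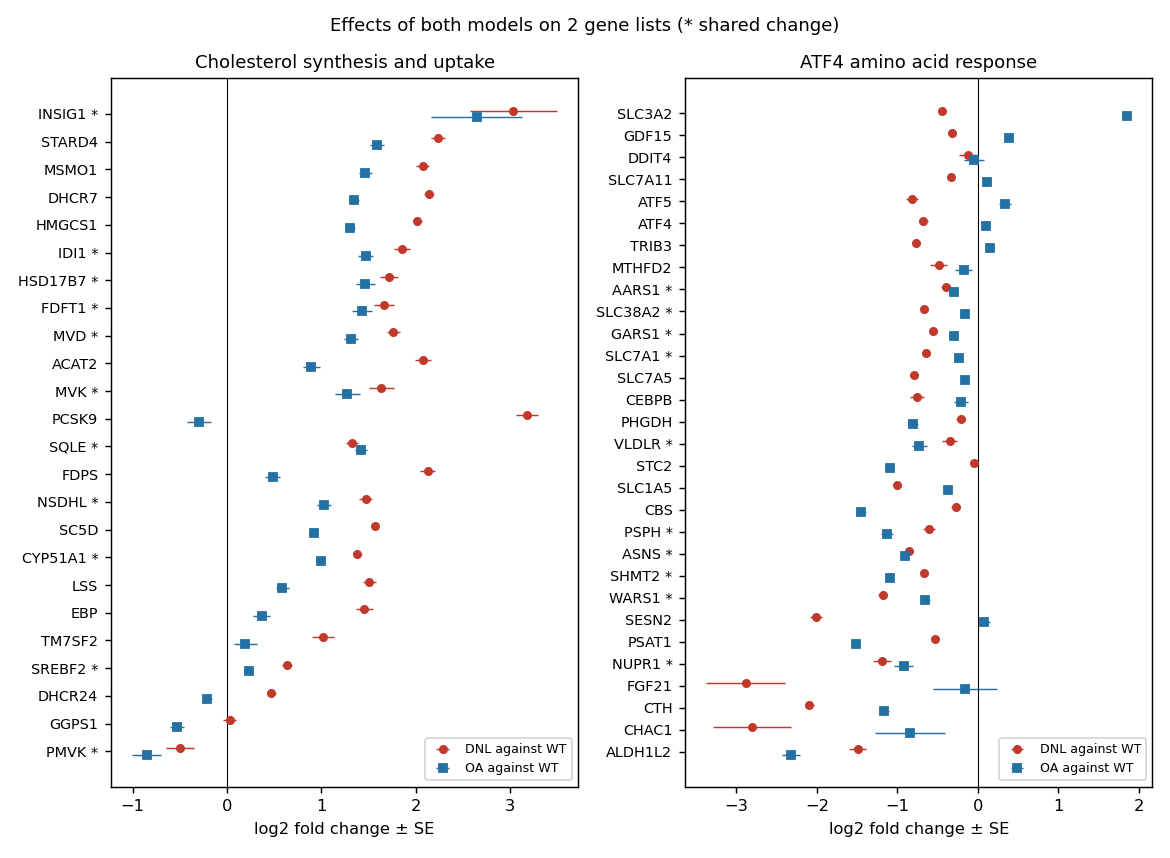
Log2 fold changes with their standard errors (bars) in DNL against WT (red) and OA against WT (blue) for 24 of the 26 tested cholesterol genes and the 30 tested ATF4 targets, with shared changes starred. Cholesterol genes lie mostly to the right of 0 in both models and ATF4 targets mostly to the left.

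The promoters of ASNS and AARS1, the alanyl-tRNA synthetase, are shown because both hold the core of the C/EBP-ATF response element through which ATF4 acts. The letters TGATGNAA occurred in 1.83% of the 11027 promoters, in 6 of the 25 ATF4 targets with a promoter and in 3 of the 7 that were shared (ASNS, AARS1 and SLC7A1). Both strands were searched, and TGATGNAA shares no stretch with the 2 motifs above that makes a match to one a match to the other. Capitals mark the motif, TGATGAAA in ASNS (chr7:97872413-97872532, minus strand), starting 68 bases before the gene start, and TTGCATCA, its reverse complement orientation, in AARS1 (chr16:70289630-70289749, minus strand), starting 187 bases before it. Gene starts for the promoters are those of RefSeq. The GENCODE span of ASNS given above begins further upstream and contains its printed bases.
ASNS: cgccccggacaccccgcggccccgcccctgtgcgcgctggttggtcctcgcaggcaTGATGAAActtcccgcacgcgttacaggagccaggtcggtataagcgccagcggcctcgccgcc
AARS1: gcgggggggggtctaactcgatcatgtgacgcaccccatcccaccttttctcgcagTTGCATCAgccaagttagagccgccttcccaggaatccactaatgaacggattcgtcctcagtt
Across the shared sets the same letters were in 1.38% of higher and 1.45% of lower genes, near the share of all promoters. The E-box CACGTG, the element of MYC and related factors, was in 9.79% of all promoters, 13.8% of shared lower and 8.41% of shared higher genes. CACGTG contains ACGTG, the hypoxia response core, which was in 25.9% of all promoters, 29.6% of shared lower and 25.5% of shared higher genes.

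Genes of the translation machinery were mostly lower in the average, by small amounts. Of 28 tested cytosolic ribosomal protein genes, 11 were shared lower (9.15% of all genes tested) and 0 shared higher. In the average 23 were called lower and 2 higher (28.0% and 27.1% of all genes tested), with a median log2 fold change of -0.24. DNL called 12 of them lower and 2 higher (26.8% and 27.1%), with a median of -0.12. OA called 24 lower and 1 higher (29.7% and 30.4%), with a median of -0.44. The models were called in opposite directions in 2 (13.5% of all genes tested). RPL4, a protein of the large subunit, fell from 431, 386 and 396 CPM in WT to 256, 241 and 206 in DNL and 288, 279.6 and 278 in OA (1.57-fold, adjusted p = 2.35e-06). RPL37, also of the large subunit, fell from 189, 162 and 167 CPM to 129.7, 134 and 125 in DNL and 97.4, 101 and 87.2 in OA (1.55-fold, adjusted p = 8.97e-07). The order of the models differed between them, with DNL lower in RPL4 and OA lower in RPL37. Ribosomal protein genes have many near-identical processed copies in the genome, among which the estimator may split reads. Of 17 ribosome biogenesis genes, 15 were called lower in the average and 0 higher, and 6 were shared lower, among them NOP56, a core protein of box C/D snoRNPs, at 157, 154 and 152 CPM in WT, 117, 109 and 115 in DNL and 75.6, 92.2 and 97.7 in OA (adjusted p = 3.28e-06). WDR12, of the large subunit assembly complex, fell 1.51-fold (adjusted p = 7.73e-07). The models differed over the biogenesis list. DNL called 15 of its genes lower and 0 higher (26.8% and 27.1% of all genes tested). OA called 8 lower and 4 higher (29.7% and 30.4%), and 4 genes were called in opposite directions. The list median was -0.33 in DNL and -0.08 in OA. With scaling by library totals, 15 ribosomal protein genes and 7 biogenesis genes were shared lower.

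Nucleotide and one-carbon genes held more shared falls than shared rises. Of 22 tested, 7 were shared lower (31.8%, against 9.15% of all genes tested) and 3 shared higher (13.6%, against 8.71%). Purine synthesis genes were among those that fell: ATIC, of the last purine steps, went from 277, 264 and 271 CPM in WT to 219, 220.1 and 199.7 in DNL and 174, 161 and 153 in OA (1.45-fold, adjusted p = 4.97e-07), and ADSL, the adenylosuccinate lyase, fell 1.46-fold (adjusted p = 7.43e-07). Those that rose included TYMS (thymidylate synthase, 1.72-fold) and the cytosolic SHMT1 (1.88-fold), and SHMT1 counted as shared in 8 of 15 alternative fits and lost its call in OA without OA replicate 3 (adjusted p = 0.0772). 

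Some replication genes rose in both models. Of 33 tested mitosis and DNA replication genes, 7 were shared higher (8.71% of all genes tested) and 0 lower. In the average 22 were called higher and 4 lower (27.1% and 28.0% of all genes tested). DNL called 11 of them higher and 10 lower (27.1% and 26.8%), and OA called 27 higher and 0 lower (30.4% and 29.7%). The models were called in opposite directions in 7 (13.5% of all genes tested). The list median was 0.05 in DNL and 0.86 in OA. CCNE1, the cyclin of entry into S phase, rose from 9.88, 8.84 and 8.01 CPM in WT to 19.2, 21 and 19.1 in DNL and 19.7, 22.9 and 16.9 in OA (2.23-fold, adjusted p = 1.70e-06). PCNA, the sliding clamp of DNA polymerase, rose from 71.7, 70.8 and 68.8 CPM to 139.8, 137 and 136 in DNL and 170.1, 142 and 139 in OA (2.04-fold, adjusted p = 1.94e-08). DNL and OA values overlapped in both genes. MCM2, a subunit of the replicative helicase, rose more in OA (1.23) than in DNL (0.65) and counted as shared in 10 of 15 alternative fits. CDKN1A, the p53 target and cyclin-dependent kinase inhibitor p21, also rose, from 158, 165 and 159.7 CPM to 268, 275 and 311 in DNL and 297, 356 and 363 in OA (1.93-fold, adjusted p = 4.88e-07). The p53 list as a whole held 3 shared rises (15.0%) and 2 shared falls (10.0%) among 20 tested, near the shares of all genes tested (8.71% and 9.15%), and 6 and 0 with scaling by library totals. CCND1, cyclin D1, was not shared: it was at 450.3, 457 and 447 CPM in WT, 819, 826 and 773 in DNL and 549, 484 and 478 in OA.

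Sugar metabolism genes showed a mixed picture in which the shared members mostly rose. Of 24 tested glycolysis and glucose transport genes, 4 were shared higher (16.7%, against 8.71% of all genes tested) and 1 lower (4.17%, against 9.15%). DNL called 20 of them higher and 3 lower (27.1% and 26.8% of all genes tested). OA called 10 higher and 7 lower (30.4% and 29.7%), and 5 were called in opposite directions (13.5%). The list median was 0.95 in DNL and 0.08 in OA. PKM, the pyruvate kinase of muscle and proliferating cells, rose from 385, 395 and 364 CPM in WT to 958, 947 and 924 in DNL and 717, 741 and 728 in OA (2.17-fold, adjusted p = 6.48e-11). SLC2A1, the glucose transporter GLUT1, rose from 181, 171 and 188 CPM to 317, 324 and 294 in DNL and 339, 293 and 268 in OA (1.7-fold, adjusted p = 2.17e-06). The lactate exporter SLC16A3 was the shared fall, at a log2 fold change of -0.22 (adjusted p = 9.62e-04). Of 17 hypoxia targets, 4 were shared higher (23.5%) and 0 lower, and besides NDRG1 they included ANKRD37 (3.89-fold) and the prolyl hydroxylase EGLN1 (1.42-fold). The hypoxia list had a median of 0.97 in DNL and 0.06 in OA. DNL called 14 of its genes higher and 0 lower (27.1% and 26.8% of all genes tested). OA called 7 higher and 7 lower (30.4% and 29.7%), and 6 were called in opposite directions (13.5%).

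Of 13 tested genes of gluconeogenesis and insulin repression, 6 were called lower in both models, and 3 of these lay within the size bound and so were shared lower (23.1%, against 9.15% of all genes tested). Insulin was added only to DNL. IGFBP1 (ENSG00000146678, chr7:45888357-45893668), a secreted binder of insulin-like growth factors, was at 5162, 4956 and 5323 CPM in WT, 1801, 1792 and 1888 in DNL and 2133, 2514 and 2330.1 in OA. Every treated value was under 0.6 times the lowest WT value, DNL was the lower model, and the average fell 2.5-fold (log2 fold change -1.32, SE 0.045, adjusted p = 1.54e-10). PDK2, a kinase that shuts off pyruvate dehydrogenase, fell from 20.8, 19.4 and 19.1 CPM to 13.6, 10.8 and 12.1 in DNL and 8.77, 9.29 and 11.5 in OA (1.81-fold, adjusted p = 1.17e-05). INSR, the insulin receptor, fell slightly (-0.17, adjusted p = 9.46e-04). These were the 3 shared falls, and the list had 0 shared rises. TXNIP, a glucose-responsive inhibitor of thioredoxin, did not share its change, at 244, 244 and 242 CPM in WT, 222, 221 and 242 in DNL and 89.8, 74.2 and 86 in OA.

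Lipid storage and oxidation genes were shared at rates near those of all genes tested (8.71% higher and 9.15% lower). Of 12 triacylglycerol synthesis genes, 2 were shared higher (16.7%) and 0 lower, of 15 lipid droplet genes 1 higher and 1 lower (6.67% each), and of 19 oxidation genes 1 higher (5.26%) and 3 lower (15.8%). LPIN1, the phosphatidate phosphatase lipin 1, was at 34.3, 35.2 and 34.1 CPM in WT, 90.4, 86.7 and 89.4 in DNL and 90.9, 87.3 and 93.6 in OA. DNL and OA could hardly be told apart in LPIN1 and both were above WT, at 2.6-fold (log2 fold change 1.38, SE 0.0467, adjusted p = 1.46e-10). AGPAT2, the acyltransferase that makes phosphatidate, rose from 4.47, 5.31 and 4.68 CPM to 16.4, 17.8 and 14.2 in DNL and 12.6, 13.3 and 10.8 in OA (2.93-fold, adjusted p = 3.36e-07). Among the lipid droplet genes, HILPDA, an inhibitor of the lipase ATGL, rose 1.69-fold (adjusted p = 4.11e-04) and PLIN5, the perilipin of oxidative tissues, fell 2.89-fold from a low level of 2.76, 3.15 and 4.43 CPM in WT (adjusted p = 1.01e-04). CPT1A, the carnitine palmitoyltransferase that admits fatty acids to mitochondria, rose from 172, 177 and 174 CPM to 248, 237 and 239.7 in DNL and 321, 296 and 306 in OA (1.56-fold, adjusted p = 1.09e-08). In the same list, ECI1, ACADVL and HADHA, which act in beta oxidation, were shared lower at -0.69, -0.59 and -0.25 on the log2 scale.

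The best-known lipid genes were called higher in both models but by unequal sizes. SCD, the stearoyl-CoA desaturase, was at 1008, 1054 and 994 CPM in WT, 12199, 12245 and 12542 in DNL and 1650.2, 1387 and 1431 in OA. FASN, the fatty acid synthase, was at 1029, 1062 and 1067 CPM in WT, 6466, 6666 and 6615 in DNL and 1619.8, 1381 and 1356 in OA. PLIN2, the coat protein of lipid droplets, was at 416, 411 and 409 CPM in WT, 713, 691 and 732 in DNL and 3216, 3433 and 3378 in OA. SCD and FASN were highest in DNL and PLIN2 highest in OA, so their averages of 2.07, 1.55 and 1.91 describe neither model. ANGPTL4, a lipoprotein lipase inhibitor, lay just beyond the bound, at 2.16 in DNL and 2.81 in OA. Fatty acid synthesis genes as a list had 1 shared rise among 15 tested, the elongase ELOVL5 (1.86-fold, adjusted p = 4.38e-09), and none of 12 LXR targets was shared in either direction.

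Plasma carrier and lipoprotein genes mostly differed in direction between the models. In the list of plasma carriers and hepatocyte markers, DNL called 16 of 26 tested genes higher and 7 lower (27.1% and 26.8% of all genes tested), and OA called 0 higher and 24 lower (30.4% and 29.7%). In 15 the models were called in opposite directions (13.5% of all genes tested). The list held 3 shared falls (11.5%, near the 9.15% of all genes tested) and 0 shared rises. Among the falls, FOXA3, a forkhead factor of hepatocytes, was at 66, 66.9 and 70.01 CPM in WT, 30.1, 32.6 and 36.8 in DNL and 29.5, 29.4 and 32.8 in OA (2.13-fold lower, adjusted p = 2.52e-08). CEBPA, a factor of hepatocyte differentiation, was at 88.1, 79.5 and 89.98 CPM in WT, 46.4, 55.1 and 47 in DNL and 70.2, 61 and 51.2 in OA (1.56-fold lower, adjusted p = 5.97e-05). In both factors the treated values lay below all WT values. APOM, the apolipoprotein that carries sphingosine-1-phosphate, was the single shared change among 15 lipoprotein genes, falling from 27.5, 26.6 and 28 CPM to 8.9, 8.52 and 8.06 in DNL and 7.5, 8.14 and 7.84 in OA (3.35-fold, adjusted p = 1.37e-09). None of 20 coagulation genes and none of 13 mitochondrially encoded transcripts was shared. Complement genes went more often the same way, with 8 of 19 called lower in both models and 5 in opposite directions. For acute phase genes these counts were 6 and 3 of 12. Of the 13636 genes tested, 13.5% were called in opposite directions. Of the same 13636, 1248 were lower in both models within the bound, and 112 and 281 beyond it (larger in DNL and in OA).

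Lysosomal, metal-binding and chaperone genes included further shared rises, where 8.71% of all genes tested were shared higher and 9.15% lower. Of 25 lysosome and autophagy genes, 7 were shared higher (28.0%) and 2 lower (8.0%), led by NPC2, the carrier of lysosomal cholesterol (1.98-fold, adjusted p = 3.25e-08), and CTSA, a protective carboxypeptidase (1.72-fold, adjusted p = 3.95e-09). The 2 that fell were the protease CTSB (-0.52) and the glucosidase GAA (-0.43), of which GAA counted as shared in 5 of 15 alternative fits. Over the 25 genes, DNL called 13 higher and 10 lower (27.1% and 26.8% of all genes tested). OA called 18 higher and 3 lower (30.4% and 29.7%), and 7 were called in opposite directions (13.5%). Of 18 metallothionein and metal transport genes, 4 were shared higher (22.2%) and 0 lower, among them MT2A at 76.2, 68.1 and 68.9 CPM in WT, 159, 126 and 141 in DNL and 171, 184 and 168 in OA (2.22-fold, adjusted p = 5.93e-08). MT2A, MT1E (2.16-fold) and MT1A (4.11-fold) are near-identical small genes among which reads may be split. CALR, the calcium-binding chaperone calreticulin, rose from 464, 446 and 435 CPM to 1052, 1056 and 989 in DNL and 1343, 1313 and 1294 in OA (2.6-fold, adjusted p = 2.05e-11). Its partner CANX, calnexin, fell (-0.58, adjusted p = 6.25e-05), and the unfolded protein response list held 3 shared rises (13.6%) and 2 shared falls (9.09%) among 22, near the shares of all genes tested. DNL called 5 of these 22 higher and 12 lower, OA called 17 higher and 3 lower, and 8 were called in opposite directions.

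Lists of signalling targets held small numbers of shared members, to be read against 8.71% of all genes tested shared higher and 9.15% shared lower. Of 12 tested NF-kB targets, 3 were shared higher (25.0%), CXCL8 with the inhibitor NFKBIA (1.4-fold) and the subunit NFKB1 (1.28-fold), and RELB was shared lower (-0.44). NFKB1 was shared in 9 of 15 alternative fits and lost its call in OA without OA replicate 3 (adjusted p = 0.0799). Of 15 interferon-stimulated and antigen presentation genes, 3 were shared higher and 1 lower (6.67%): OAS1, OAS3 (2.42-fold) and IFIT3 (1.94-fold) rose and IFIT1 fell (-0.55), and OAS3 and IFIT1 were shared in only 9 and 6 of 15 alternative fits. Immediate early genes held 1 shared rise (5.26%) and 3 shared falls (15.8%) among 19 tested. In the average 8 of them were called higher and 8 lower (27.1% and 28.0% of all genes tested). In the models 7 were called in opposite directions (13.5%). EGR1, an immediate early transcription factor, fell from 424, 413 and 392.1 CPM to 233, 216 and 199 in DNL and 162, 218 and 222 in OA (1.97-fold, adjusted p = 2.12e-05). YAP and TAZ targets held 0 shared rises and 2 shared falls (18.2%) among 11 tested, and 0 of either with scaling by library totals. In the average 4 of them were called higher and 6 lower (27.1% and 28.0% of all genes tested). In the models 3 were called in opposite directions (13.5%). CCN1 and AJUBA, targets of YAP and TAZ, fell 2.06-fold and 2.23-fold, and AJUBA left the bound without OA replicate 3. INHBE, the hepatic activin E subunit, fell from 171, 175 and 172 CPM to 77.1, 87.6 and 83.6 in DNL and 55, 68.2 and 66.6 in OA (2.39-fold, adjusted p = 3.62e-09). BMAL1, a core activator of the circadian clock, rose 2.99-fold (adjusted p = 0.0031) from under 2.1 CPM in every WT sample. CD24 and SPP1, surface and secreted proteins also made by cholangiocytes, rose 2.92-fold and 1.82-fold. The summed cholangiocyte marker list was 851 to 964 CPM in DNL and 805 to 961 in OA against 463 to 479 in WT. None of its 5 tested genes was shared, and their median log2 fold change was 0.71 in DNL and 0.17 in OA. DNL called 4 of them higher and 0 lower (27.1% and 26.8% of all genes tested). OA called 2 higher and 1 lower (30.4% and 29.7%), and 1 was called in opposite directions (13.5%). The part of other cell types was not tested.

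**Figure D5:**
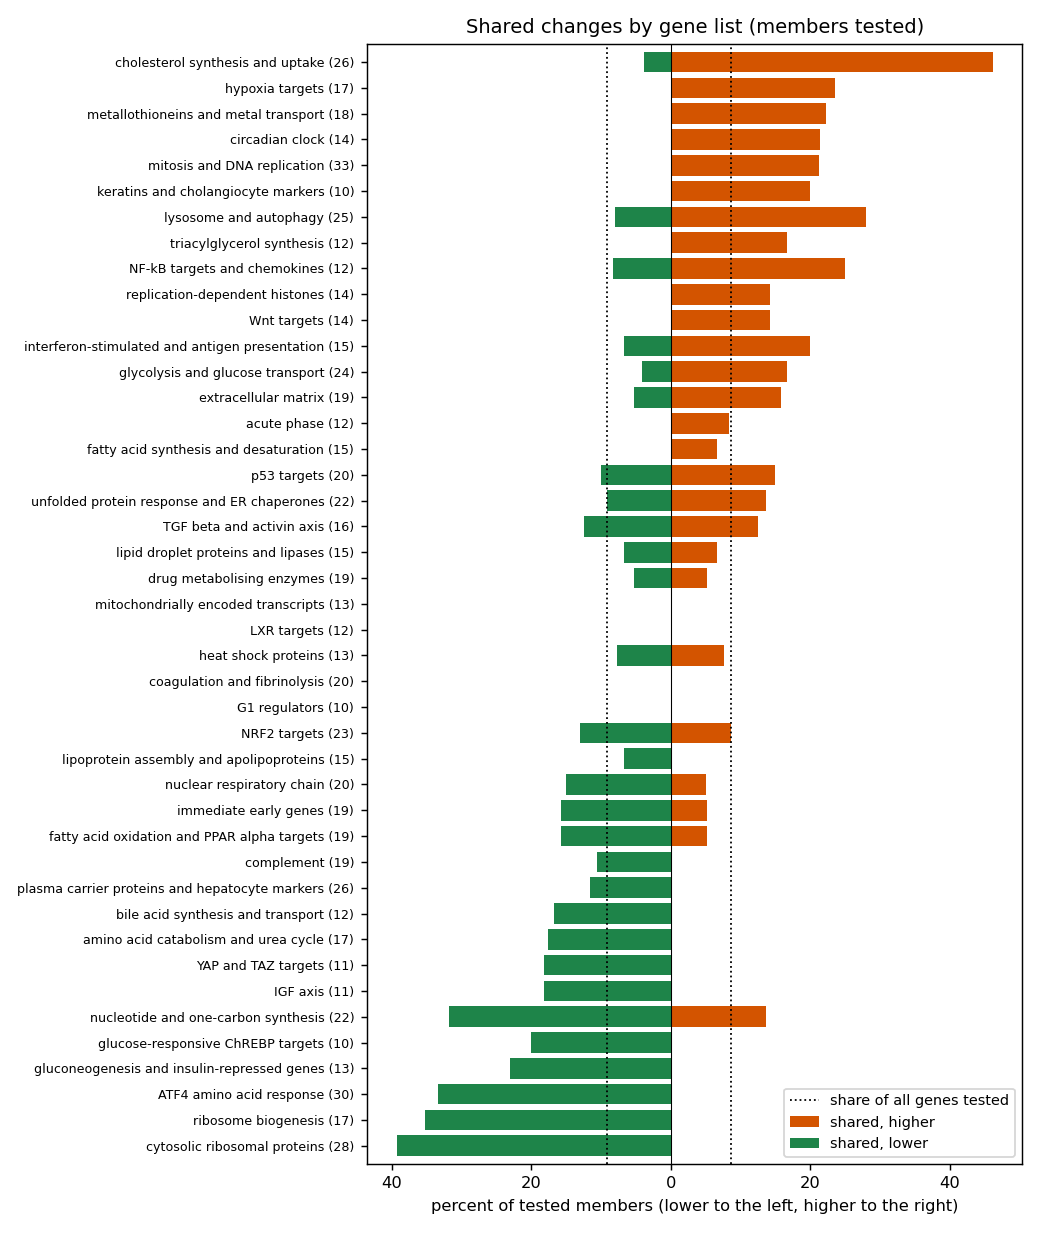
Percent of tested members of 43 pathway lists that were shared higher (right) or shared lower (left), with the number of members tested in brackets and dotted lines at the shares over all genes tested, 8.71% and 9.15%. Cholesterol synthesis has the longest bar to the right (12 of 26) and cytosolic ribosomal proteins the longest to the left (11 of 28).

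Some members had nearly the same effect in both models. AGPS, which forms the ether bond of ether lipids in peroxisomes, was at 182, 168 and 168 CPM in WT, 72.5, 74.6 and 76 in DNL and 79.1, 72.9 and 71.8 in OA, and its effects of -1.22 and -1.21 on the log2 scale were the closest among falls of at least 2-fold and 20 CPM. SFI1, a centrosomal protein, was next with -1.70 and -1.69, and its OA replicate 3 was over 2-fold below the other OA samples. ZNF853, a zinc finger gene, was the third with -1.27 and -1.30. Among rises, LPIN1 and SPARC, described above, were of this kind. The closeness of SPARC rested on OA replicate 3, without which it was 3.65 in DNL and 2.54 in OA. These genes were picked for a small difference between the models, so that difference is a description, and closeness of the 2 estimates does not bound it. At the other end, TUBA1B, an alpha tubulin, lay just inside the bound with 0.93 in DNL and 1.51 in OA. TUBA1B has near-identical tubulin paralogs.

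Fit choices left most of the count in place but not every gene. Of the shared genes, 584 higher and 746 lower met the rule in all 15 alternative fits, and among changes of at least 2-fold 111 of 197 and 87 of 163 did. Scaling by library totals moved the balance to 881 higher and 1554 lower, so that 36.2% of shared changes were higher instead of 48.8%. In DNL against WT the higher share of calls moved from 50.3% to 32.2%, as the median log2 fold change of all genes moved from -0.02 to -0.18.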

How the data were processed

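Per the labels' protocols, total RNA of 9 HepG2 samples went into stranded libraries after ribosomal RNA was removed. The authors deposited estimated counts per gene, made with kallisto 0.48.0 after FastQC 0.11.9 on GRCh38, per the submitters' processing notes. Neither the annotation release nor kallisto's strand setting is stated: not given in the sources used here. Of 19317 genes listed, 19272 were found in GENCODE release 29, the source of gene coordinates.

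Estimated counts were rounded, filtered with filterByExpr, scaled by TMM and tested in 1 fit of all samples with edgeR 4.0.16 (quasi-likelihood, robust) in R 4.3.3, with Benjamini-Hochberg adjustment. Contrasts were the equal-weight average of DNL and OA against WT, each model against WT, and DNL against OA. The common dispersion of 0.0112 equals a coefficient of variation of 10.6% between replicates. The SE of each log2 value was computed from edgeR's F. No replicate pair agreed within sampling noise (chi-square per degree of freedom 5.44 to 16.6). On simulated counts over 13431 genes, the average against WT called 59.7% of the genes changed 1.5-fold, 77.6% of those changed 2-fold and 87.9% of those changed 4-fold, with 3.23% false calls. The rule for shared changes was met by 47.8%, 70.1% and 75.8% of them. Few genes were changed there, and by the same fold in both models. In the data 55.1% of genes were called in the average and 13.5% in opposite directions, so these rates may not hold for the data.

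The members, the 43 pathway lists, the 6 marker lists and the tests were chosen with earlier results of these data known. Named genes were the 12 largest shared rises and falls with at least 5 CPM in the higher side and no overlap, up to 3 shared members per list and direction with counted exceptions, 14 sentinel genes, the genes next to the bound and the 3 closest pairs per direction. Alternatives were RLE size factors, library totals, no filter, DESeq2 1.42.0, limma-voom (limma 3.58.1), the replicate number as a block, leaving out each sample, and other bounds. Motifs were searched as exact letters. Some genes are not reported here by name.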

Additional observations from a re-analysis of the deposited data

Results flagged for a closer look

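In 3 named genes the models moved in opposite directions, each called against WT, and the difference between DNL and OA was itself called by edgeR. HSPA5, the main chaperone of the endoplasmic reticulum, was at 1072, 1045 and 1031 CPM in WT, 809.9, 835 and 795 in DNL and 4422, 4894 and 4852 in OA. Its log2 fold change in DNL minus that in OA was -2.54 (adjusted p = 2.96e-13), although its average over both models was called higher. APOB, which forms the core protein of secreted VLDL particles, was at 30463, 30827 and 29328 CPM in WT, 49985, 48554 and 48473 in DNL and 9626, 8428 and 8249.5 in OA, a difference of 2.48 (adjusted p = 1.26e-12). ALB, albumin, was at 6128, 5982 and 5935 CPM in WT, 7150.3, 6930.4 and 7587 in DNL and 1787, 1560.3 and 1536 in OA, a difference of 2.15 (adjusted p = 7.19e-12). APOB and ALB were above WT in DNL and below it in OA, and the reverse held for HSPA5. For these genes a call in the average is not a shared change. Over all genes, 1840 of 13636 were called in opposite directions in the models, and in 1090 of them the average was not called.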

How the results depend on the processing

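Over 149 named genes, 2231 of 2235 alternative values of the average against WT kept their direction and call, and 0 reversed. The 4 others lost the call: OAS3 without WT replicate 2 or 3 (adjusted p = 0.0594 and 0.0501), NDUFA4 without WT replicate 3 (0.0600) and IFIT1 without WT replicate 1 (0.0528). Of 170 alternative values of the 10 counts, 164 lay within 1.5 times the value reported. The exceptions were shared changes of at least 2-fold, where the bound sets the count by construction. The narrower bound tried left 107 higher and 88 lower, and a bound of 2 gave 314 higher. Requiring the 90% interval of the difference to lie within the bound left 73 and 70. The last exception was an expression filter and not a bound: at least 5 CPM in the higher side left 116 of 197 higher. Leaving out 1 sample gave 3223 to 3792 genes higher and 3265 to 3904 lower in the average, 3258 to 3869 and 3147 to 3807 in DNL, 3765 to 4238 and 3673 to 4044 in OA, 990 to 1176 and 1021 to 1244 shared, and 183 to 199 and 133 to 154 shared at 2-fold. Replicate numbers did not pair the samples: deviations of same-numbered samples correlated at -0.0176 to 0.0534, and with the replicate number as a block 1142 higher and 1219 lower genes were shared, 190 and 152 of them at least 2-fold, with 3653 and 3743 called in the average. Without the genes uneven in OA replicate 3, a setting chosen after seeing the data, 1180 and 1240 were shared. The shallowest library held 7836447 counts, which limits genes of low level.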
